A study of Homo sapiens with 6 samples.

Results

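The actin cytoskeleton genes described here are 35 genes for actins, actin-binding proteins, nonmuscle myosin II, adhesion plaque proteins and the transcription factor SRF, out of 17645 genes listed. They were chosen by gene symbol, and the choice was made with their fold changes between siRNF31 and siControl in these same libraries already known. The differences between the groups are therefore given as a description of these genes, and nothing is read from how many of them moved. RNA came from cells labelled MDAMB231 (MDA-MB-231, a human triple negative breast cancer cell line), harvested 48 h after siRNA transfection. One group of 3 libraries received a control siRNA (siControl) and the other group of 3 an siRNA against RNF31 (siRNF31), and both were grown in the same serum-containing medium. RNF31 encodes HOIP, the catalytic subunit of the linear ubiquitin ligase LUBAC. The labels do not say that the replicates were separate cultures, so errors and p-values describe how far these libraries differ within a group, and that spread may be technical.

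Actin exists as monomers and as filaments, and cells adjust the transcription of cytoskeletal genes to the balance between them. The cofactors MRTF-A and MRTF-B bind actin monomers through RPEL motifs; when monomers are used up in filaments, the cofactors reach the nucleus, join SRF and activate genes that carry its binding sequence, the CArG box. SRF also works with the ternary complex factors of the ELK family, which respond to growth factor and MAP kinase signals and drive immediate early genes. Many actin regulators are SRF targets, and SRF itself is among them.

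The CArG box is 2 C, then 6 bases that are each A or T, then 2 G. This pattern reads the same on both strands, although the letters of a given box need not. RefSeq promoter windows (GRCh38.p14, from 250 bases before to 50 after a start site) were found for 32 of the 35 genes. MYL9, ACTB and TAGLN had no entry. An exact CArG box lay in a window of 8 of these 32 genes (25%), against 1.60% of all 27305 genes with a window. The 35 genes were put together as actin cytoskeleton and SRF target genes. A high share is therefore built into the choice, and nothing is read from it. The 9 stretches that hold these boxes are shown because they are the SRF binding sequence of genes whose levels are described next. Capitals mark the boxes, each stretch reads 5′ to 3′ on the strand of its gene, and bases after the start site are left out.
SRF, chr6:43171224-43171268, plus strand: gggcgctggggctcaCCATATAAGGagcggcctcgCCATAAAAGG
ACTG1, chr17:81512869-81512908, minus strand: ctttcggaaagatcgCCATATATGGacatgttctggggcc
CNN2, chr19:1026504-1026543, plus strand: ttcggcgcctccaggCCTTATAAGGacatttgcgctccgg
FLNA, chrX:154374704-154374743, minus strand: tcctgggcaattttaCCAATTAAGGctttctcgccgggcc
TPM4, chr19:16067350-16067389, plus strand: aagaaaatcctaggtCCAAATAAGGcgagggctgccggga
FHL2 upstream start site, chr2:105438590-105438629, minus strand: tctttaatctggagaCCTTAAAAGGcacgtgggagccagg
FHL2 downstream start site, chr2:105399086-105399125, minus strand: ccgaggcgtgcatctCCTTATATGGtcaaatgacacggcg
TGFB1I1, chr16:31473139-31473178, plus strand: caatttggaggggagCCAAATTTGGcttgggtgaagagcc
ACTN1, chr14:68977713-68977752, minus strand: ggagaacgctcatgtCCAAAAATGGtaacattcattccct

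The box begins 94 bases before the start site in both ACTG1 and FLNA, 89 in CNN2 and 173 in TPM4. SRF carries 2 boxes, 30 and 10 bases before its start site, in 1 of its 2 windows. FHL2 has a box in 3 of 4 windows, which share the 2 stretches printed. In TPM4 the box lies in 1 of 3 windows, in TGFB1I1 in 1 of 3 and in ACTN1 in 1 of 4, so other start sites of these genes lack it in the window. A match is a description of the letters and no evidence of SRF binding in these cells.

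RNF31 itself went from a mean of 10.9 ± 0.412 to 1.97 ± 0.136 FPKM (fragments counted per transcript length and library size; SD, n = 3 each). All 35 genes passed the filter on low values, which kept the 11346 genes that reached 1 FPKM in 3 or more of the 6 libraries. Genes with a limma adjusted p (Benjamini-Hochberg over all of them) below 0.05 count as called, and 63.1% of all tested genes were called. Fold changes are siRNF31 minus siControl on the log2(FPKM + 1) scale with their standard error (SE). Of the 35 genes 19 were called higher, where 26.6% of all tested genes were, and 4 lower, where 36.5% were; 12 were not called. By at least 2-fold on that scale 3 were higher (ACTA2, TPM4 and TAGLN), where 3.53% of all tested genes were, and 0 lower, where 4.31% were. Their median log2 fold change was 0.23, beside -0.06 for all genes tested. Of the 8 genes with a box, SRF, ACTG1, CNN2, FLNA, TPM4 and FHL2 were called higher in siRNF31, where 26.6% of all tested genes and 35.3% of the 153 tested genes with a box were. TGFB1I1 was called lower and ACTN1 was not called. The 8 genes count among the 153. Of the 24 genes of the 35 with a window and no box, 10 were called higher (41.7%) and 3 lower (12.5%). The shares of all tested genes were 26.6% and 36.5%, and the difference by box was not tested. The calls of ACTG1 and FLNA were lost with the replicate number as a block (limma, adjusted p = 0.058 and 0.051).

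**Figure D1:**
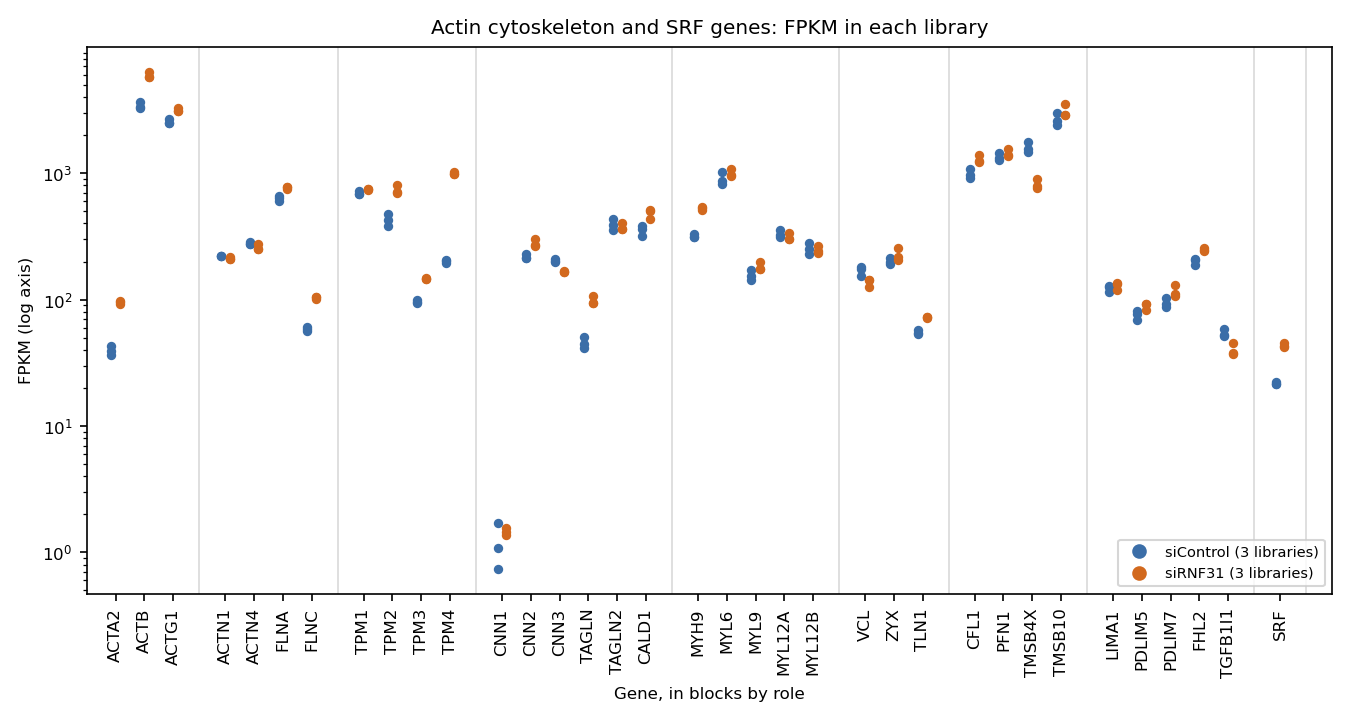
FPKM (log axis) of the 35 genes in each library, in blocks by role from actins on the left to SRF on the right; each point is 1 of 3 siControl (blue) or 3 siRNF31 (orange) libraries. Levels span from about 1 FPKM for CNN1 to 6328 for ACTB, and TPM4 shows the widest gap between the groups.

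A pair of libraries stood apart from the others of their group in the same way. In siControl replicate 1 and siRNF31 replicate 3, genes with short transcripts such as TMSB10 and MYL6 lay above the group mean and genes with long transcripts such as VCL lay below it. Over the 35 genes the deviation from the group mean and the median transcript length had a Spearman correlation of -0.72 and -0.57 in these libraries, and of 0.43 to 0.65 in the other 4. The median was taken over all annotated protein coding transcripts of a gene, short ones included. It was 789 bases for MYH9 and 905 for ACTN1, whose longest transcripts have 7554 and 3779 bases. Each group holds 1 such library. Without both, 24 of the 35 genes were called higher and 5 lower, where 30.0% and 39.8% of all tested genes were. With the length trend removed the counts were 22 and 4, where 28.4% and 38.4% of all tested genes were called. The part of transcript length in the results was not tested further.

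**Figure D2:**
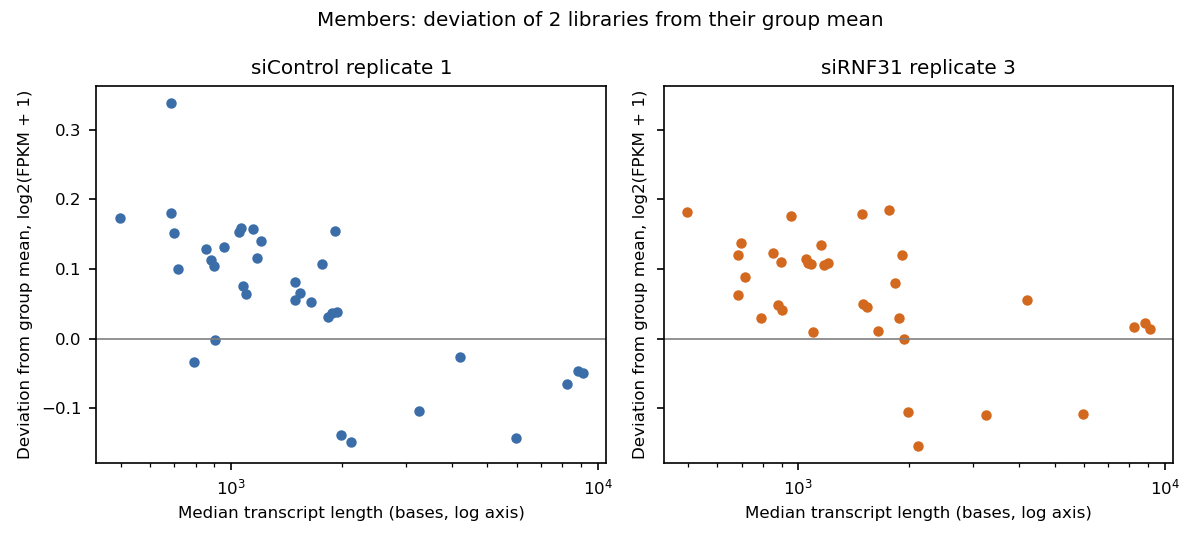
Deviation from the group mean (log2 scale) against median transcript length (bases, log axis) for the 35 genes in siControl replicate 1 and siRNF31 replicate 3; each point is a gene. Short transcripts lie mostly above 0 in both libraries; the longest lie below 0 in siControl replicate 1, while SRF, FLNA, TLN1 and FLNC lie just above it in siRNF31 replicate 3.

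The profile of the cells was checked against fixed marker lists, since several of the 35 genes are also markers of muscle and fibroblasts. Of the mesenchymal markers of the line, VIM was at 3027 to 3771 FPKM and AXL at 292 to 331 across the 6 libraries, and neither was called. CD44 was lower in siRNF31, at 550.4 ± 17.3 and 247 ± 3.35 FPKM (log2 fold change -1.15, limma adjusted p = 7.39e-07). Of the luminal and hormone receptor markers, EPCAM (0 to 0.03 FPKM), CDH1 (0.08 to 0.20) and PGR (0 to 0.01) were at or near 0. FOXA1 (0.27 to 0.42) and GATA3 (0.59 to 0.81) were below 1 FPKM, and ESR1 stayed at or below 1.33. ERBB2 was expressed in every library, at 6.84 to 8.47 FPKM, and was not called. All 8 markers of fibroblasts were present in every library, however, with COL1A1 at 652 to 1074 FPKM, COL3A1 at 193 to 337, LUM at 93.6 to 120 and PDGFRA at 18.8 to 51.6. Fibrillar collagens, lumican and the PDGF receptors are typical of fibroblasts and are not defining genes of an epithelial tumour line, so these data go in part against the label. The epithelial keratin KRT18 measured 156.7 to 178 FPKM in siControl and 86.7 to 97.7 in siRNF31, and KRT19 did not exceed 0.07. KRT7 went the other way, from 3.61 ± 0.270 to 6.16 ± 0.537, and KRT8 was not called, at 10.2 ± 0.493 and 10.2 ± 0.859. The keratins were chosen after the marker values were seen. The summed FPKM of the fibroblast list ran from 2108 to 2205 in siControl and from 1850.03 to 1875 in siRNF31. Of its 8 genes 6 were lower, where 36.5% of all tested genes were. Of the others COL3A1 was higher, where 26.6% of all tested genes were, and COL1A2 was not called. The 8 smooth muscle markers summed to 43.0 to 45.2 FPKM in siControl and 81.9 to 88.0 in siRNF31. Of the 6 tested 5 were higher, where 26.6% of all tested genes were, and SYNPO2 was not called. SYNM, an intermediate filament gene, rose from 2.57 ± 0.373 to 20.7 ± 1.96. ACTG2, MYOCD and SMTN (21.4 ± 0.924 and 26.8 ± 2.85) were also higher, as was LMOD1 (0.427 ± 0.0757 and 1.77 ± 0.217), which passed the filter only through siRNF31. Without LMOD1 4 of 5 were higher. MYH11 (0.04 to 0.09) and DES (0.03 to 0.32), which define smooth muscle, were near 0 in all libraries and were not tested. In bulk RNA a change in the make-up of the cells and a change of RNA per cell cannot be told apart, and the part of these marker genes in the results was not tested.

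SRF, the transcription factor that binds the CArG box, measured 21.3, 22.4 and 21.4 FPKM in siControl and 42.1, 43.3 and 45.3 in siRNF31. The siRNF31 libraries all lay above the siControl libraries, with a ratio of means of 2.01 (log2 fold change 0.97, SE 0.053). SRF was among the least abundant of the 35, in place 34 by mean FPKM in siControl and 33 in siRNF31.

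All 3 actin genes were higher in siRNF31. ACTB, the main cytoplasmic actin, measured 3668, 3254 and 3356 FPKM in siControl and 5770.2, 5782 and 6328 in siRNF31. No values overlapped, with a ratio of means of 1.74 (log2 fold change 0.80, SE 0.082), and ACTB moved from place 3 to place 1 among all 17645 genes by mean FPKM. ACTG1, the other cytoplasmic actin, measured 2665, 2505 and 2477 and then 3120.1, 3078 and 3247. Its ratio of 1.24 was smaller (0.30, SE 0.070), again without overlap. ACTA2, the alpha smooth muscle actin of contractile fibroblasts and smooth muscle, measured 42.6, 38.9 and 36.7 and then 94.8, 91.7 and 98.1, a ratio of 2.41 (1.25, SE 0.066). The 3 actins together went from 6015 ± 314 to 9203 ± 407 FPKM. Within that sum, ACTB went from 56.9% ± 0.732 to 64.7% ± 0.616, ACTG1 from 42.4% ± 0.725 to 34.2% ± 0.597 and ACTA2 from 0.655% ± 0.0252 to 1.03% ± 0.0213 (SD, n = 3 each). ACTA2 shares exons on the opposite strand with its antisense gene ACTA2-AS1 (17.3% of its exon bases) and with FAS (12.8%), and no strand setting of the counting is given in the sources used here, so its reads and theirs could not be told apart. In all 11 of the 35 genes share 5% or more of their exon bases with another gene on the opposite strand; the others are CFL1, VCL, TPM4, CNN2 and TAGLN, given with their values, and TPM1, ACTN4, MYL6, PFN1 and MYL12A, which were not called. Of the 50-base words of the longest ACTB transcript in GENCODE release 29, 10.3% occur in transcripts of other genes; the share was 3.58% for ACTG1 and 0% for ACTA2.

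Tropomyosins are coiled-coil proteins that lie along the actin filament and decide which other proteins can bind it. TPM4 had the largest fold change of the 35 genes. It measured 206, 202.5 and 193 FPKM in siControl and 986, 980 and 1013 in siRNF31, a ratio of 4.96 (log2 fold change 2.30, SE 0.058), and moved from place 321 to 61 among all genes. The groups were far apart, with no overlap. TPM2 measured 471, 422 and 379.9 and then 693, 706 and 804, a ratio of 1.73 (0.79, SE 0.095). TPM3 measured 99.9, 93.7 and 95.5 and then 144, 147 and 147, a ratio of 1.52 (0.60, SE 0.052). Neither pair of groups overlapped. TPM1, the most abundant tropomyosin in siControl at 697 ± 27.1 FPKM, measured 746 ± 10.03 in siRNF31 and was not called (0.10, SE 0.061); it was called with median of ratios scaling (limma, adjusted p = 0.031), without siControl replicate 1 and siRNF31 replicate 3 together (adjusted p = 0.018) and with the length trend removed (adjusted p = 0.017).

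The make-up of the tropomyosin pool therefore differed between the groups in shares that do not depend on how libraries are scaled. TPM4 made up 13.7%, 14.4% and 14.3% of the summed tropomyosin FPKM in siControl and 38.3%, 38.2% and 37.3% in siRNF31. TPM1 went the other way, from 49.2% ± 1.06 to 28.5% ± 0.797, while TPM2 held 29.9% ± 1.57 and 28.0% ± 1.43 with overlapping values. The summed FPKM of the 4 genes was 1.85 times as high in siRNF31. TPM4 shares 9.60% of its exon bases with AC008894.3 on the opposite strand. Of the 50-base words of TPM4, 23.1% also occur in transcripts of other genes, 19.1% in those of AC098614.1, and the way the authors assigned such reads is not given in the sources used here.

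**Figure D3:**
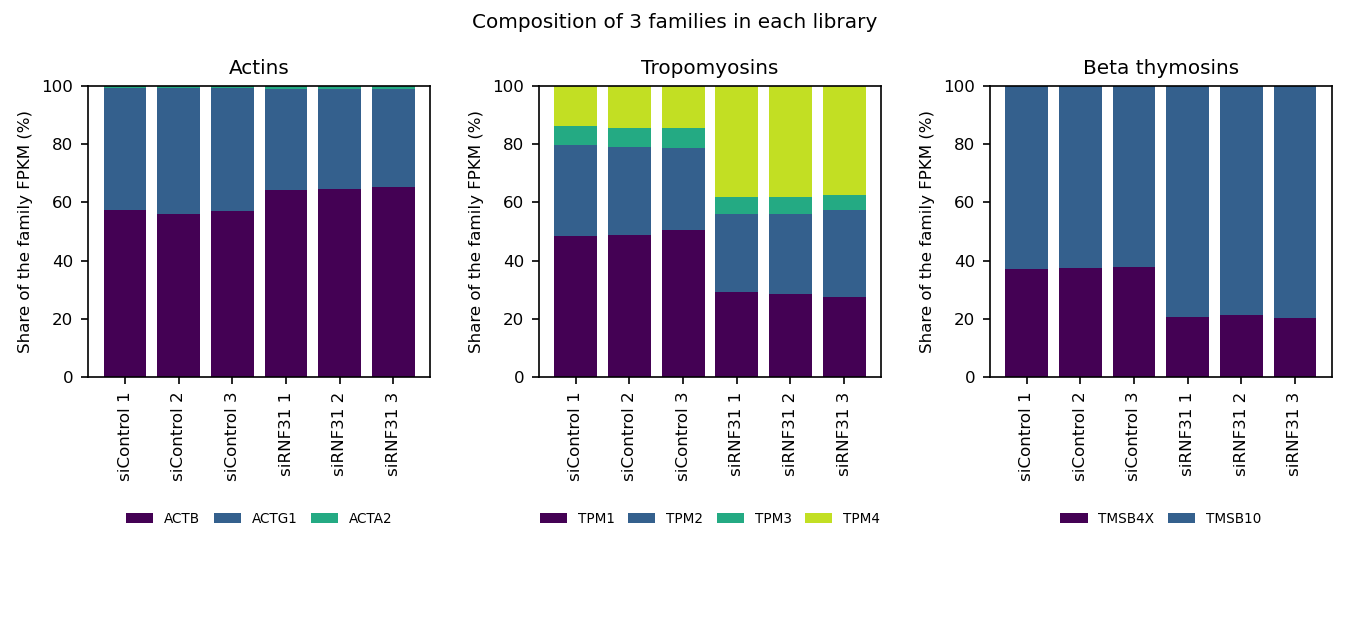
Stacked bars give each gene's share (%) of the summed FPKM of its family in each of the 6 libraries, for actins, tropomyosins and beta thymosins. The TPM4 share is 37.3% or more in each siRNF31 library and 14.4% or less in each siControl library, and the TMSB4X share is 21.4% or less against 37.1% or more.

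Calponin-like proteins and caldesmon bind along filaments, and some of them, such as TAGLN and CNN1, are used as markers of smooth muscle differentiation. Members of the same family went different ways. TAGLN (SM22-alpha) measured 50.3, 44.6 and 41.1 FPKM in siControl and 94.0, 93.8 and 105.9 in siRNF31, a ratio of 2.16 (log2 fold change 1.10, SE 0.085). Its broadly expressed relative TAGLN2 had overlapping values, 432, 391 and 356 and then 362, 364 and 406, and was not called. CNN2 measured 231, 215 and 211 and then 269, 267 and 299 (0.34, SE 0.068), and CNN3 measured 208, 199 and 200.4 and then 165, 168 and 166 (-0.28, SE 0.051). CNN2 was thus higher and CNN3 lower, both without overlap, and the CNN2 share of summed calponin FPKM went from 51.8% ± 0.564 to 62.3% ± 1.53. CNN1, the smooth muscle calponin, was barely expressed, at 1.71, 1.09 and 0.74 and then 1.45, 1.37 and 1.57, and its values overlapped. It was called higher in the fits without siControl replicate 1 (log2 fold change 0.37, limma adjusted p = 0.012) and without that library and siRNF31 replicate 3 together (0.34, adjusted p = 0.018). CALD1, caldesmon, which links actin to myosin, measured 317, 362 and 379 and then 510.3, 504 and 432 (0.45, SE 0.093), without overlap. On the opposite strand TAGLN shares 11.4% of its exon bases with PCSK7 and CNN2 shares 9.27% with AC011558.1.

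Crosslinkers gather filaments into networks and bundles. FLNC, filamin C, measured 56.8, 58.9 and 60.9 FPKM in siControl and 101.9, 104.9 and 104.9 in siRNF31, a ratio of 1.77 (log2 fold change 0.81, SE 0.052). FLNA, the main filamin, measured 606, 632 and 665 and then 748, 770.4 and 772, a ratio of 1.20 (0.27, SE 0.063). Both filamins were without overlap, and FLNC went from 8.49% ± 0.0980 to 12.0% ± 0.0151 of their sum. The alpha-actinins ACTN1 (222 ± 0.367 and 213 ± 5.40 FPKM) and ACTN4 (280.1 ± 5.28 and 259.96 ± 12.7) did not overlap between the groups but were not called. ACTN1 changed sign with median of ratios scaling, and ACTN4 was called lower with common sum scaling (-0.13, limma adjusted p = 0.014) and without siControl replicate 1 and siRNF31 replicate 3 together (-0.13, adjusted p = 0.012).

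Nonmuscle myosin II pulls on actin filaments; it consists of heavy chains, regulatory light chains and essential light chains. MYH9, the heavy chain IIA, measured 311, 314 and 329.8 FPKM in siControl and 515, 527 and 537 in siRNF31, a ratio of 1.65 (log2 fold change 0.72, SE 0.058). The light chains differed far less than the heavy chain. MYL9, a regulatory light chain, measured 173, 153 and 142 and then 174, 175 and 198; the groups did not overlap, but siControl replicate 1 came close to the lower siRNF31 libraries. Its call as higher (0.23, limma adjusted p = 0.047) was lost in 8 of 14 alternative settings. These included leaving out any 1 siRNF31 library, or siControl replicate 3 or 2, with adjusted p up to 0.139. The essential light chain MYL6 (899 ± 104 and 1001 ± 74.2 FPKM) and the regulatory chains MYL12A (331 ± 22.4 and 312 ± 21.1) and MYL12B (254 ± 27.1 and 248 ± 17.03) had overlapping values and were not called. MYL6 was called higher without siControl replicate 1 (log2 fold change 0.25, limma adjusted p = 0.024), without it and siRNF31 replicate 3 together (0.19, adjusted p = 0.0044) and with the length trend removed (0.18, adjusted p = 0.0495). With common sum scaling MYL12A was called lower (-0.11, adjusted p = 0.045). MYL12A and MYL12B share some sequence, with 6.44% of the 50-base words of MYL12A found in MYL12B. How the reads of that shared part were divided between them is uncertain.

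**Figure D4:**
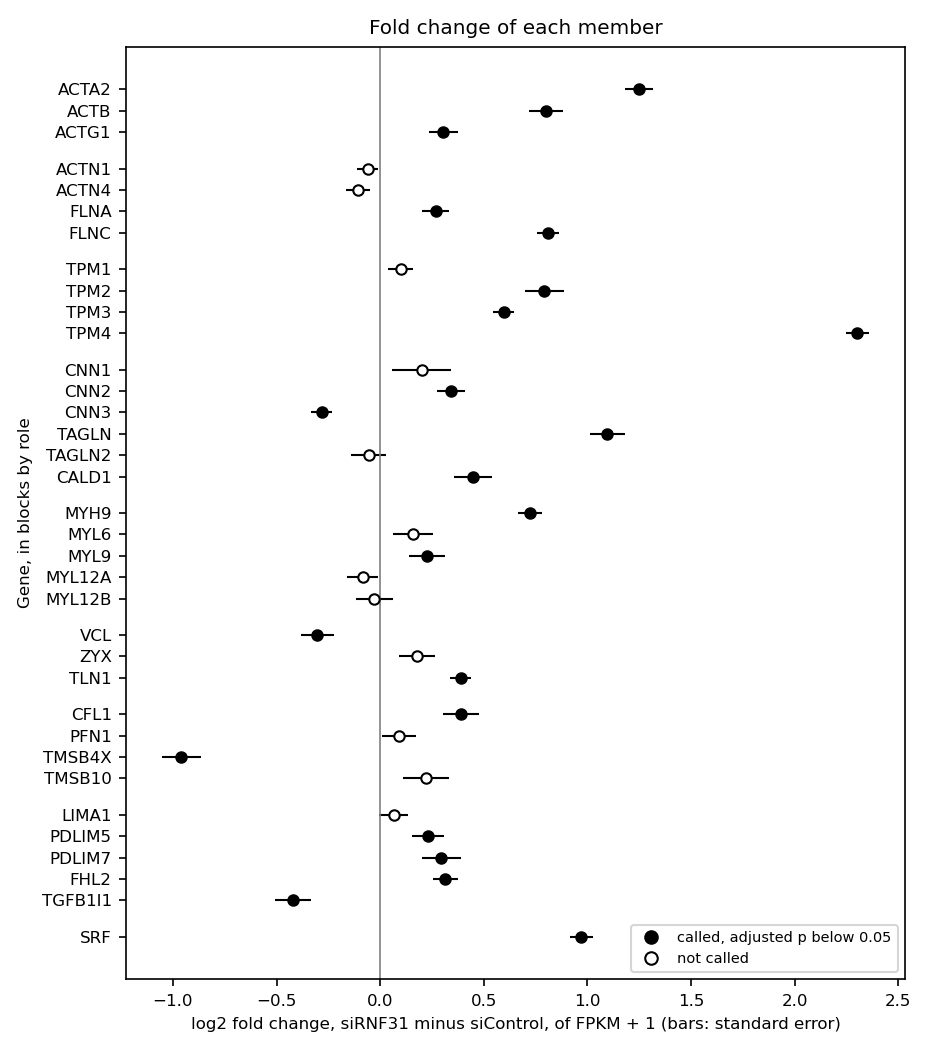
Log2 fold change (siRNF31 minus siControl, of FPKM + 1) of each of the 35 genes with its standard error, in blocks by role; filled points were called over all tested genes and open points were not. TPM4 lies farthest to the right at 2.30 and TMSB4X farthest to the left at -0.96.

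Monomer-binding and turnover proteins set how much actin is free. TMSB4X, thymosin beta-4, which holds monomers in reserve, was the gene of the 35 with the largest decrease. It measured 1765, 1549 and 1465 FPKM in siControl and 763, 792 and 897 in siRNF31, which left 51.3% of the siControl mean (log2 fold change -0.96, SE 0.094). The groups did not overlap, and TMSB4X moved from place 20 to 81 among all genes. Its relative TMSB10 measured 2992, 2578 and 2424 and then 2904, 2907 and 3512, with overlap, and was not called. It was called higher with median of ratios scaling (0.29, limma adjusted p = 0.039), common sum scaling (0.20, adjusted p = 0.034), without siControl replicate 1 (0.31, adjusted p = 0.025) and without that library and siRNF31 replicate 3 together (0.22, adjusted p = 0.0019). As a share of the summed thymosin FPKM, TMSB4X went from 37.4% ± 0.299 to 20.9% ± 0.536. The summed thymosin FPKM per summed actin FPKM was 0.746, 0.712 and 0.662 in siControl and 0.408, 0.413 and 0.456 in siRNF31, with no overlap. CFL1, cofilin, which severs filaments, measured 1075, 963 and 916 and then 1241, 1228 and 1402 (0.39, SE 0.086), and shares 12.9% of its exon bases with MUS81 and 6.09% with SNX32 on the opposite strand. PFN1, profilin, which feeds monomers to growing ends, had overlapping values of 1345 ± 96.9 and 1432 ± 93.6 and was not called under any of the 14 alternatives.

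Adhesion plaque proteins tie filaments to integrins. TLN1, talin, which binds and activates integrins, measured 53.2, 54.7 and 57.0 FPKM in siControl and 71.1, 72.2 and 73.3 in siRNF31 (log2 fold change 0.39, SE 0.052). VCL, vinculin, which binds talin under tension, measured 153, 174 and 182 and then 142, 142 and 127 (-0.30, SE 0.080). Talin was thus higher and vinculin lower, each without overlap; VCL shares 11.1% of its exon bases with AP3M1 on the opposite strand. ZYX, zyxin, a LIM protein that moves to strained filaments, had overlapping values of 200.4 ± 10.9 and 227 ± 25.8 and was not called. ZYX was called higher with median of ratios scaling (0.25, limma adjusted p = 0.032), common sum scaling (0.15, adjusted p = 0.046), the length trend removed (0.19, adjusted p = 0.033) and without siControl replicate 1 and siRNF31 replicate 3 together (0.13, adjusted p = 0.031).

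The other LIM domain genes differed by small amounts. FHL2, a LIM-only cofactor known to bind SRF, measured 208, 204 and 189 FPKM in siControl and 242, 247 and 257 in siRNF31 (log2 fold change 0.31, SE 0.061). TGFB1I1 (Hic-5), a paxillin relative of focal adhesions, measured 58.2, 52.5 and 51.3 and then 37.8, 37.1 and 45.6 (-0.42, SE 0.088). FHL2 was higher and TGFB1I1 lower, both without overlap and under all 14 alternatives. PDLIM7 (94.2 ± 8.32 and 116 ± 12.9 FPKM) and PDLIM5 (75.8 ± 6.5 and 88.9 ± 5.56), scaffolds with a PDZ and LIM domains, were called higher, but the call of PDLIM5 was lost in 7 alternatives and that of PDLIM7 in 4. For PDLIM5 these included leaving out replicate 1 or 2 of either group (limma, adjusted p between 0.0652 and 0.105). For PDLIM7 they included leaving out replicate 3 of either group or siControl replicate 2 (limma, adjusted p between 0.0510 and 0.0698). LIMA1 (EPLIN), a filament stabiliser, measured 123 ± 7.72 and 129 ± 8.47 and was not called.

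Summed over the 35 genes, FPKM went from 20704, 18922 and 18518 in siControl to 23794, 23885 and 26081 in siRNF31, a ratio of 1.27. As a share of the FPKM of all genes this was 4.42% ± 0.0847 and 5.52% ± 0.0965 (SD, n = 3 each), with no overlap. Without ACTB and ACTG1 the ratio of the sums was 1.15.

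Regulators and partners outside the 35 were taken from 7 pathway lists fixed by role. They held 124 genes, of which 118 were tested; 44 were higher and 31 lower, or 37.3% and 26.3%, beside the shares of all tested genes given earlier. The median log2 fold change was 0.08. These counts include LCP1, EGR2, EGR3, FOS, FOSB and ACTBL2, which reached the filter only through the group where they are high.

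The cofactors that SRF needs went both ways. MRTFA measured 12.0 ± 0.165 FPKM in siControl and 19.1 ± 1.03 in siRNF31, an increase (0.63 on the log2 scale, limma adjusted p = 2.85e-05), while its paralog MRTFB, less abundant, fell from 3.45 ± 0.730 to 1.63 ± 0.262 (-0.75, adjusted p = 0.0011). MYOCD, myocardin, the cofactor of muscle, was low and rose from 1.88 ± 0.219 to 2.85 ± 0.102. Of the ternary complex factors, ELK4 rose from 3.39 ± 0.471 to 6.62 ± 0.691 and ELK1 fell from 8.53 ± 0.200 to 5.64 ± 0.365. ELK3, the most abundant of the ELK genes, rose by less, from 24.5 ± 0.467 to 29.7 ± 0.974 (0.27, limma adjusted p = 0.00193). In all 4 of 7 tested cofactors were higher and 2 lower, where 26.6% and 36.5% of all tested genes were. Of 9 immediate early genes that SRF drives with the ternary complex factors, EGR2, EGR3, FOS and FOSB were below 1 FPKM in every siControl library and passed the filter only through siRNF31, so they had to differ and no count or median over the list is given. Of the 5 others EGR1, IER2, MCL1 and NR4A1 were higher, where 26.6% of all tested genes were, and JUNB was not called. EGR1 rose from 6.06 ± 0.386 to 196.5 ± 0.694 FPKM (4.81). FOS measured 0.537 ± 0.0635 and 32.2 ± 0.441 (4.43) and FOSB 0.53 ± 0.115 and 13.7 ± 0.533 (3.27); for such low genes the pseudocount of 1 lowers the fold change, and with 0.1 the value of FOS (5.67) exceeded that of EGR1 (5.00). The difference between these genes and the 35 was not tested.

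Of 17 genes of the Arp2/3 complex, which makes branched filaments, and its activators 4 were higher and 4 lower. Of all tested genes 26.6% were higher and 36.5% lower. CTTN, cortactin, which stabilises branches, rose from 61.9 ± 1.33 to 112 ± 2.60 FPKM, a log2 fold change of 0.84 (limma adjusted p = 2.21e-06). ABI1 and BRK1, subunits of the WAVE complex, rose by 0.54 and 0.52 on the log2 scale. The complex subunits ARPC1B and ARPC5 fell, by 0.69 and 0.39, and the activator WASL by 0.36. Of 16 capping, severing and other monomer-binding genes 7 were lower, or 43.8% where 36.5% of all tested genes were, 1 (CAP1) was higher and 8 were not called. ADD3, an adducin, fell from 25.1 ± 3.08 to 12.3 ± 1.06 (-0.97, adjusted p = 4.11e-05), CFL2, the muscle cofilin, from 26.1 ± 0.673 to 14.9 ± 0.627 and TWF2, a twinfilin, from 52.3 ± 3.62 to 33.6 ± 1.98. The call of CAP1 (0.15, adjusted p = 0.032) was lost when replicate 2 of either group, siControl replicate 3 or siRNF31 replicate 1 was left out (adjusted p between 0.0738 and 0.111).

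Other adhesion and LIM genes were higher in 8 of 23 and lower in 7, where 26.6% and 36.5% of all tested genes were. VASP, which elongates filaments at adhesions, fell from 46.4 ± 1.82 to 19.2 ± 1.80 FPKM, a log2 fold change of -1.23 (limma adjusted p = 1.91e-06), TNS3, a tensin, from 22.6 ± 1.69 to 9.77 ± 0.890 and its relative TNS1 from 4.51 ± 0.283 to 2.69 ± 0.101. The LIM genes CSRP2, TES and CSRP1 rose, by 0.66, 0.57 and 0.54. Of other actins, myosins and crosslinkers 10 of 18 were higher and 3 lower, beside the same shares of all tested genes. LCP1 and ACTBL2 passed the filter only through the group where they are high. Without them 9 of 16 were higher and 2 lower. SPTAN1, alpha spectrin, rose from 30.9 ± 1.94 to 74.0 ± 1.27 (1.24, adjusted p = 6.23e-07), and ACTG2, the gamma smooth muscle actin, from 15.9 ± 0.473 to 29.8 ± 2.57. LCP1, the plastin of blood cells, measured 0.517 ± 0.0473 and 1.94 ± 0.0693. MYO10 and the heavy chain IIB gene MYH10 fell by 0.35 each, and ACTBL2 measured 1.32 ± 0.190 and 0.72 ± 0.101. MYH10 was thus lower while MYH9, described with the members, was higher.

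**Figure D5:**
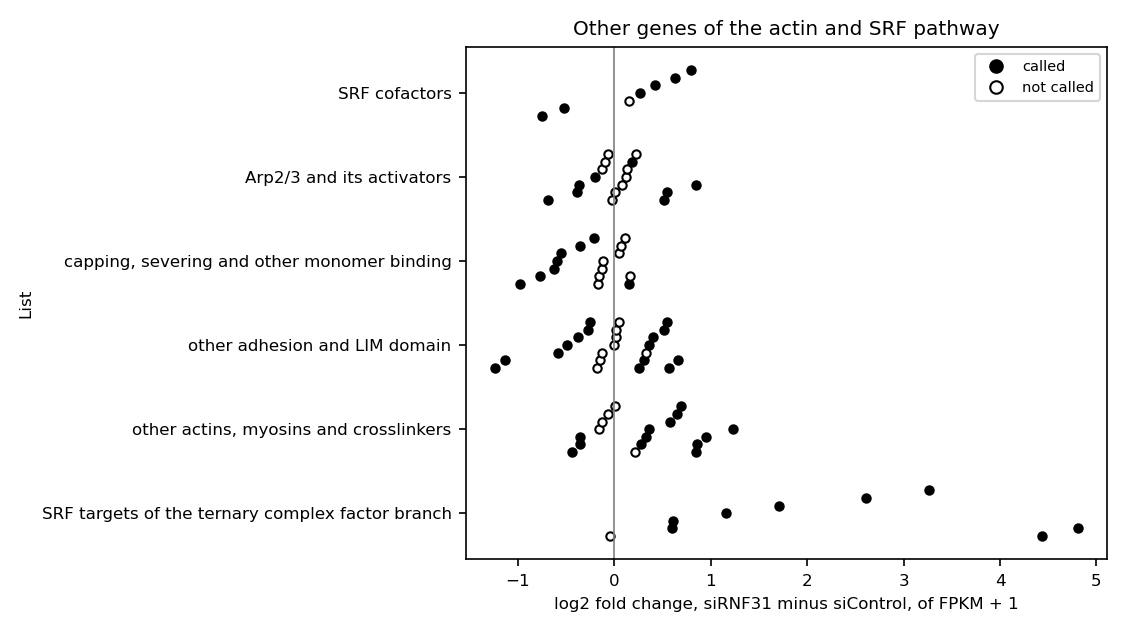
Log2 fold change (siRNF31 minus siControl, of FPKM + 1) of the 90 tested genes in 6 of the pathway lists outside the 35 genes; each point is a gene, filled if called. The immediate early SRF targets reach 4.81, farther than any other list.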

How the data were processed

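RNA-seq libraries (Trizol lysis, BGISEQ-500 protocols, per the labels) were compared as 3 siControl against 3 siRNF31. The authors deposited FPKM with 2 decimals, per the file headers; aligner, quantification tool, build and annotation: not given in the sources used here. Since the smallest non-zero value was 0.01, the print step, steps of single reads could not be read off. Depth is thus unknown, and counting intervals are left out. FPKM sums ran from 421755 to 463457.

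On log2(FPKM + 1), for genes reaching 1 FPKM in 3 or more of 6 libraries, limma 3.58.1 (R 4.3.3) was run with an intensity trend and robust moderation, two-sided, Benjamini-Hochberg adjusted over 11346 genes. The fit was tested on simulated data. Members and lists were chosen with earlier results of these data known. Named were all 35 members, RNF31 and, per pathway list, up to 3 called genes with the largest change per direction and groups without overlap. Markers, keratins, ELK3, JUNB, EGR2, EGR3, IER2, MCL1 and NR4A1 stand outside that rule. WASF3 was not analysed here. The genes of 1 of the 7 pathway lists count in the totals and are not reported here. Alternatives were pseudocount 0.1, no filter, median of ratios or common sum scaling, no trend, replicate block, and leaving out libraries; removal of a transcript length trend (spline, 5 degrees of freedom, GENCODE release 29, 99.4% of tested genes) was chosen after seeing the data. Other software was Python 3.11.15, numpy 2.4.6, pandas 2.3.3 and matplotlib 3.10.9.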

Additional observations from a re-analysis of the deposited data

How the results depend on the processing

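Over the 14 alternatives the 35 genes gave 14 to 24 calls higher and 4 to 6 lower, within 1.5 times the reported counts. Of 23 called genes 18 kept direction and call under all 14, and 2 of 12 not called, PFN1 and LIMA1, stayed so. With the replicate block the calls of ACTG1 and FLNA were lost, as given above (limma, adjusted p = 0.058 and 0.051). So were those of MYL9 (limma adjusted p = 0.128), PDLIM5 (0.0952), PDLIM7 (0.0742) and, outside the 35 genes, CAP1 (0.169). MYL9 and PDLIM5 also lost theirs without the filter (limma, adjusted p = 0.0771 and 0.0513). MYL9 lost it with no trend (limma, adjusted p = 0.0539) and PDLIM5 with common sum scaling (0.118). Signs turned 7 times, counting each gene in each alternative, all of genes that were not called there. With median of ratios scaling these were ACTN1 (log2 fold change 0.0119), TAGLN2 (0.0162) and MYL12B (0.0433). Without siControl replicate 1 they were TAGLN2 (0.0139) and MYL12B (0.0505), without siRNF31 replicate 1 MYL12B (0.012) and with the length trend removed MYL12B (0.022). Leaving out single libraries moved TAGLN2 between -0.1254 and 0.0139 and MYL12B between -0.1016 and 0.0505. The cause was not tested.

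With the replicate block 14 of the 35 genes were higher and 4 lower. Deviations of same-numbered libraries from their group means correlated by -0.57, 0.12 and -0.63 over tested genes. The libraries that stood apart, siControl replicate 1 and siRNF31 replicate 3, carry different numbers and correlated by 0.675. Their shared deviation enters these values, so whether the numbers pair the samples cannot be told from them. The summed FPKM ratio of the 35 genes ran from 1.23 to 1.31 when single libraries were left out and was 1.33 and 1.25 with the scalings. Leaving out single libraries gave 16 to 21 higher. Without siControl replicate 1 and siRNF31 replicate 3 together, the members had 24 higher and 5 lower, where 30.0% and 39.8% of all tested genes were. Depth is unknown, which limits what can be said of genes near 1 FPKM such as CNN1.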

Other observations

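Among all tested genes with a promoter window, 153 held an exact CArG box and 9214 did not. Of those with a box 35.3% were called higher and 30.7% lower (limma), beside 26.3% and 36.3% of those without. With the 35 cytoskeletal genes left out, 33.1% of 145 genes with a box and 26.3% of 9190 without were higher. By at least 2-fold these shares were 6.21% and 3.33%. EGR2, which passed the filter only through siRNF31 and so had to differ, counts among the genes with a box. The windows cover part of each promoter, and the difference between the shares was not tested.

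Over 11281 tested genes the deviation of siControl replicate 1 and siRNF31 replicate 3 from their group mean had a Spearman correlation with median transcript length of -0.41 and -0.37, and the deviations of both libraries had one of 0.71 with each other. Over the 35 genes that last value was 0.81. Genes share the libraries, so these are descriptions with no test.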
